A study of Mus musculus with 4 samples.

Results

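Barcodes that the CD3 genes mark as T cells were described in the bone marrow of mice with and without S100a8 in their blood cells. S100a8 encodes, together with S100a9, the calcium-binding protein pair calprotectin that neutrophils carry in large amounts. A droplet barcode stands for 1 captured cell, and a UMI, a unique molecular identifier, for 1 counted RNA molecule. The barcodes were chosen by their UMI counts: a barcode was taken as a T cell where it held 200 or more genes, at most 10% mitochondrial UMIs, at least 2 UMIs of Cd3d, Cd3e and Cd3g together, no Cd79a UMI (a B cell receptor gene) and no UMI of Ncr1 or Klrb1c (natural killer, NK, cell receptors). This took 378 of the 18817 bone marrow barcodes that met both quality limits, 2.01%, with 203 in the library called KO and 175 in the library called WT. The whole series holds 43059 barcodes in 4 libraries, and only the 2 bone marrow libraries were used.

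The KO mice were S100a8fl/fl with Vav-Cre+/-, a Cre recombinase driven from a promoter that is active throughout blood formation, T cells included, and the WT mice were S100a8fl/fl with Vav-Cre-/-. Both groups therefore carried the floxed allele, and the control lacked Cre. The mice bore no tumor and received no treatment, and neither age nor sex is given in the sources used here. The cells sorted were those positive for CD45, the common leukocyte antigen, and those of 3 mice were pooled into 1 droplet library for each group, so no replicate shows how far 2 pools of the same genotype would differ. No test across mice was possible. All intervals are 95% intervals for counting error only.

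T cells recognise antigens through a receptor that the CD3 proteins carry to the surface. In most T cells its chains are alpha and beta, and in a minority gamma and delta. Nearly all T cells are made in the thymus, and the bone marrow receives mature T cells from the blood. It is known as a site where memory CD8 T cells persist, supported by the cytokines interleukin 7 and interleukin 15 from stromal and myeloid cells. CD8 T cells kill infected or transformed cells, CD4 T cells help other leukocytes or, where they express Foxp3, restrain them.

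The rule counts 3 neighbouring genes whose UMIs parted in some barcodes, so their positions and the starts of the pair Cd3g and Cd3d are given first. On GRCm38, the build of the deposited counts, the protein-coding genes Cd3g (chr9:44969572-44980431, minus strand), Cd3d (chr9:44981786-44987339, plus strand) and Cd3e (chr9:44998740-45009627, minus strand) lie side by side. Cd3g and Cd3d are read away from each other from starts 1355 bases apart. The 250 bases before each start, from RefSeq on GRCm38.p6, are printed 5′ to 3′ on the gene's own strand, with every GGAA on either strand in capitals (TTCC where it lies on the opposite strand), the core letters of sites bound by ETS transcription factors.
Cd3d, chr9:44981536-44981785, plus strand: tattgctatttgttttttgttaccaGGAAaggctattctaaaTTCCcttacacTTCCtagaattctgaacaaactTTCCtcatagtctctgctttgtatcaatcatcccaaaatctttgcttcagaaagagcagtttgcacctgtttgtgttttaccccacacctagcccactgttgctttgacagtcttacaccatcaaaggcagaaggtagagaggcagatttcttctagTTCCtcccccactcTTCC
Cd3g, chr9:44980432-44980681, minus strand: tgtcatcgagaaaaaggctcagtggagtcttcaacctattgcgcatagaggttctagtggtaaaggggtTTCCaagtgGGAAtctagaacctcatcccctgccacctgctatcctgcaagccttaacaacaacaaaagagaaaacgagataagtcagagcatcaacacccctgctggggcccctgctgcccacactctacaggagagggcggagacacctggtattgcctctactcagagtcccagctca
The Cd3d stretch held 6 GGAA matches and the Cd3g stretch 2, against a mean of 2.91 over 32851 stretches of the same length, of which 93.5% held at least 1. The letters CANNTG, an E-box, occurred 1 time before Cd3d and 3 times before Cd3g, and 66.2% of all such stretches held at least 1. The stretch of the same length before Cd3e, not printed, held 5 GGAA matches and 1 E-box. These matches describe the letters and show no binding.

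The label of T cell did not hold for all of these barcodes. In each barcode the share of UMIs from 9 neutrophil genes (Ngp, Camp, Ltf, Lcn2, Retnlg, Mmp8, Mmp9, Csf3r and Cxcr2) was either low or high with few values between. It was under 0.5% in 137 of 203 KO and 153 of 175 WT barcodes, and 2% or more in 57 KO and 14 WT barcodes. With a limit of 1%, chosen after the data were seen, 65 KO and 19 WT barcodes were neutrophil-rich. Of those 65 KO barcodes, 53 held no UMI of any T cell receptor constant gene (Trac, Trbc1, Trbc2, Trdc, Tcrg-C1, Tcrg-C2 or Tcrg-C4), as did 6 of the 19 WT barcodes. Their Cd3 UMIs came from Cd3d alone in 49 of 65 KO and 6 of 19 WT barcodes. Camp, a granule peptide gene of maturing neutrophils, stood at 24944 CPM (counts per 1000000 UMIs of the set) in the neutrophil-rich KO barcodes and at 292 CPM (248 to 341) in the others of that library. Thy1, a surface protein of T cells, ran the other way, at 115 CPM (81.1 to 157) against 732 CPM (662 to 808). The plot of receptor UMIs against neutrophil share shows these groups in both libraries.

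**Figure D1:**
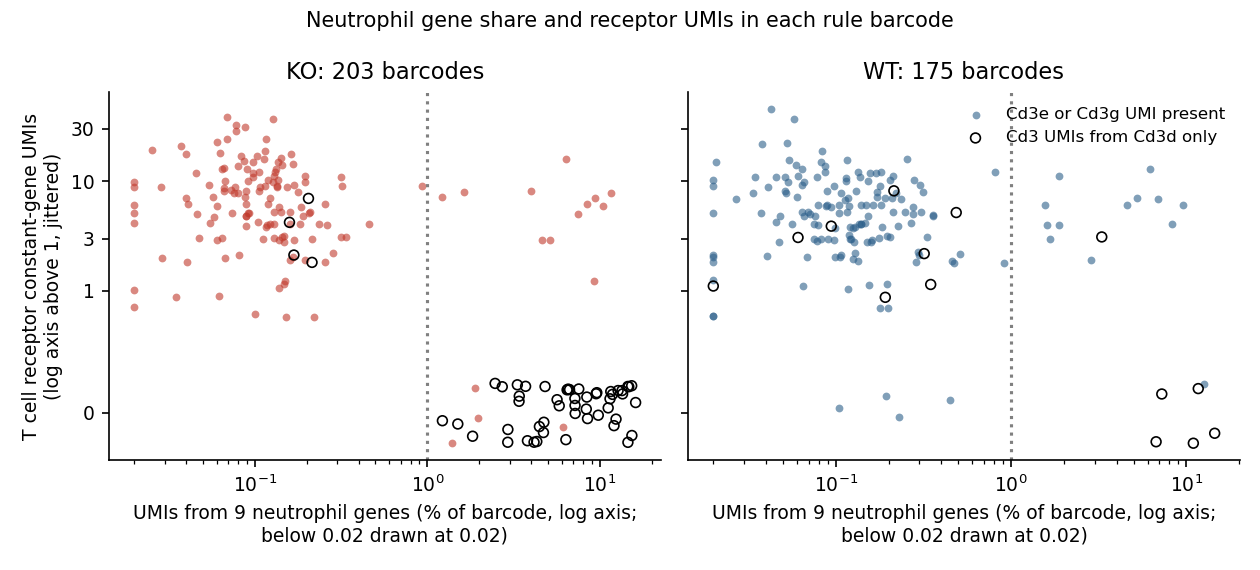
Each point is 1 barcode that met the rule, in KO (left, 203) and WT (right, 175). The x axis is the percentage of its UMIs from 9 neutrophil genes (log axis) and the y axis its T cell receptor constant-gene UMIs (log axis above 1, with jitter), open black circles are barcodes whose Cd3 UMIs were all Cd3d, and the dotted line is the 1% limit. The 65 KO barcodes to the right of the line lie mostly at 0 receptor UMIs, and 49 of them are open circles.

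Of the Cd3 UMIs in neutrophil-rich rule barcodes, 72.5% (65.5 to 78.7) were Cd3d in KO and 39.6% (29.7 to 50.1) in WT. Neutrophil-rich barcodes outside the rule leaned towards Cd3d in both libraries. Among the 7552 such KO barcodes, 266 of 374 Cd3 UMIs were Cd3d, 71.1% (66.2 to 75.7), and among the 4055 WT barcodes 101 of 137 were, 73.7% (65.5 to 80.9). In barcodes with under 1% neutrophil UMIs that met the rule the share was 38.1% (35.1 to 41.1) in KO and 35.3% (32.1 to 38.7) in WT, so these intervals did not overlap those of the barcodes outside the rule in either library. Over all neutrophil-rich barcodes Cd3d stood at 13.7 CPM (12.4 to 15.1) in KO against 9.17 CPM (7.70 to 10.8) in WT, whereas Cd3e stood at 2.45 CPM and 2.77 CPM. Barcodes of this kind entered the rule in 0.853% (0.659 to 1.09) of neutrophil-rich KO barcodes and 0.466% (0.281 to 0.727) of WT ones. What lay behind these Cd3d UMIs was not tested.

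Results are therefore given for the neutrophil-poor barcodes, 138 KO and 154 WT, and values over all rule barcodes are set beside a selection of them. Neutrophil-poor means under 1% of UMIs from the 9 genes, under 1% from the granulocyte progenitor genes Elane, Mpo, Prtn3 and Ctsg, and under 1% hemoglobin. The last limits removed 2 more WT barcodes. Each of the 138 KO barcodes held a receptor constant-gene UMI, where a count of 0 allows up to 2.17% without, and 150 of 154 WT barcodes did. That measure alone does not define a T cell, because 80.0% of 75 KO and 56.1% of 41 WT NK barcodes (Ncr1 or Klrb1c at 2 or more UMIs, no Cd3) held such a UMI too. In B cell barcodes it was found in 0.935% and 0.942%. Among the neutrophil-poor, 8 KO and 32 WT barcodes held exactly 2 Cd3 UMIs, and 23 KO and 33 WT barcodes just outside held 1. Of those just outside, 5 KO and 23 WT barcodes held a receptor constant-gene UMI.

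The other defining T cell genes were present in both libraries. All 14 genes of the T cell marker list were detected, and their summed level was 6231 CPM in KO against 6759 CPM in WT. The list and its sum include Cd3d, Cd3e and Cd3g, which the rule itself counted. These stood at 712, 549 and 609 CPM in KO and 657, 603 and 599 CPM in WT. Trac, the alpha chain constant gene, stood at 470 CPM (414 to 531) in KO against 490 CPM (427 to 559) in WT, and Trbc2, 1 of the 2 beta chain constant genes, at 951 CPM (871 to 1036) and 906 CPM (820 to 998). The summed B lineage list was 316 CPM and 703 CPM, the thymocyte list 7.34 CPM and 49.0 CPM with Rag1 and Arpp21 at 0 in KO, and the NK list 608 CPM and 412 CPM with Ncr1 and Klrb1c at 0 by the rule. The plasmacytoid dendritic list was lower in KO, 51.4 CPM against 196 CPM, with Siglech, Cox6a2 and Klk1 at 0 in KO and none of its 6 genes at 0 in WT. Its Siglech had 0 and 13 UMIs, Irf8 17 and 37, and Ly6d 2 and 11, and the dendritic list summed to 237 CPM and 443 CPM. The members of the dendritic list ran both ways. Its MHC class II genes H2-Aa, H2-Ab1 and H2-Eb1 had 4 and 49, 2 and 39, and 1 and 27 UMIs, and Itgax 11 and 23. Cst3 had 109 and 61 UMIs, and Flt3 2 and 0. Monocyte genes lay mostly higher in KO: F13a1 had 52 and 11 UMIs, Csf1r 12 and 1, and Ms4a6c 30 and 16. The F13a1 ratio was 3.90 from the sums and 1.61 averaged over barcodes. Ccr2 and Fn1 had ratios of 1.06 and 1.07, and Ly86, with 7 and 10 UMIs, was lower. Of the macrophage list, C1qa had 5 and 0 UMIs, C1qb 2 and 0, C1qc 5 and 1, and Vcam1 6 and 6. The part of these other cell types in the results below was not tested. The 14 neutrophil genes summed to 3569 CPM and 5570 CPM. That sum includes S100a8, the gene removed in the KO mice, and most of the difference was its WT level of 1834 CPM. Of the other members, Lyz2 was higher in KO, with a ratio of 1.71 (1.34 to 2.20), and Chil3 lower, with a ratio of 0.448 (0.293 to 0.674). S100a9 stood at 1948 CPM (1832 to 2069) in 138 of 138 KO barcodes and 2026 CPM (1896 to 2162) in 149 of 154 WT barcodes. S100a8 had no UMI in KO, which allows up to 5.51 CPM, and 1834 CPM (1711 to 1964) in WT, where 96.1% of the T cell barcodes and 95.2% of the B cell barcodes held a UMI. The share was close to that of B cells, and whether these UMIs came from the T cells or from background was not tested. In neutrophil-rich barcodes of the KO library only 2 S100a8 UMIs were counted, 0.0682 CPM, against 148736 CPM in WT.

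Median depth was 3094.5 UMIs and 1472 genes per neutrophil-poor KO barcode and 2314.5 UMIs and 1203 genes per WT barcode, so shares of barcodes with a UMI are also given after thinning each barcode to 1638 UMIs, which left 123 KO and 111 WT barcodes. The libraries held 11070 and 8126 barcodes and 51776813 and 32906493 UMIs in all. They shared 33 barcode strings, none of them among the 378.

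How common T cells were depended on what they were counted against. Of 333 kept KO and 256 kept WT barcodes with at least 2 Cd3 UMIs, the Ncr1 and Klrb1c limit left out 128 and 62. The Cd79a limit left out 8 and 24, with 6 and 5 left out by both limits. The part of these left-out barcodes in the shares was not tested. All rule barcodes made up 1.87% (1.62 to 2.14) of kept KO barcodes and 2.20% (1.89 to 2.54) of WT ones, a KO over WT ratio of 0.851 (0.697 to 1.04). Neutrophil-poor ones made up 1.27% (1.07 to 1.501) and 1.93% (1.64 to 2.26), a ratio of 0.658 (0.524 to 0.826). Of kept barcodes, 7617 of 10853 in KO and 4074 of 7964 in WT were neutrophil-rich. Counted only against barcodes below all 3 limits, T cells were 4.74% (4.00 to 5.58) in KO and 4.25% (3.62 to 4.96) in WT, a ratio of 1.11 (0.890 to 1.39) whose interval spans 1. By that denominator NK barcodes had a ratio of 2.13 (1.43 to 3.16) and mature B cells (Cd79a with Ighd) 0.820 (0.713 to 0.942). Among barcodes below all 3 limits, the share of T cells thus differed between the libraries by less than its counting interval. The minimum of 2 Cd3 UMIs was applied at each barcode's own depth, and the part of depth in this ratio was not tested. Among all kept barcodes, the interval of the neutrophil-poor ratio left out 1. The sort gives no cell number per bone.

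The share of CD8 T cells was lower in the KO library than in the WT library, and that of barcodes with neither coreceptor higher. CD8 barcodes were the most frequent class in WT, whereas in KO they and the barcodes with neither coreceptor were about equally frequent at full depth. Barcodes with Cd8a or Cd8b1 (the chains of the CD8 coreceptor) and no Cd4 were 63 of 138 in KO, 45.7% (37.2 to 54.3), and 93 of 154 in WT, 60.4% (52.2 to 68.2). After thinning they were 37.4% (28.8 to 46.6) and 54.1% (44.3 to 63.6), so the order held at equal depth while the intervals overlapped. Over all rule barcodes the shares were 33.5% (27.0 to 40.4) and 57.7% (50.03 to 65.1). In B cells, which lack CD8, the share was 0.415% at a median of 2090 UMIs in KO and 0.157% at 1761.5 UMIs in WT. Cd4, the coreceptor of helper T cells, gave 15 KO barcodes, 10.9% (6.21 to 17.3), and 11 WT barcodes, 7.14% (3.62 to 12.4), and thinning left 8 and 3. Barcodes with neither coreceptor were 42.8% (34.4 to 51.5) and 32.5% (25.2 to 40.5), and after thinning 56.1% (46.9 to 65.0) and 43.2% (33.9 to 53.0). The class grew in both libraries when UMIs were removed, and it can hold CD4 or CD8 cells with no coreceptor UMI. Only 1 KO barcode held both coreceptors.

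Foxp3, the transcription factor of regulatory T cells, was seen in 3 KO and 5 WT barcodes, and 10 of its 13 KO UMIs were in 1 barcode. Trdc, the delta chain constant gene, was seen in 11 KO and 10 WT barcodes, of which 9 and 9 had no Trac UMI and 7 and 8 held Ccl5. Of the beta chain genes, 73 KO and 71 WT barcodes held Trbc2 without Trbc1, 11 and 22 held Trbc1 without Trbc2, and 47 and 53 held both. Trbc1 and Trbc2 are near-identical over their coding part, so the counting can have split or merged their UMIs.

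**Figure D2:**
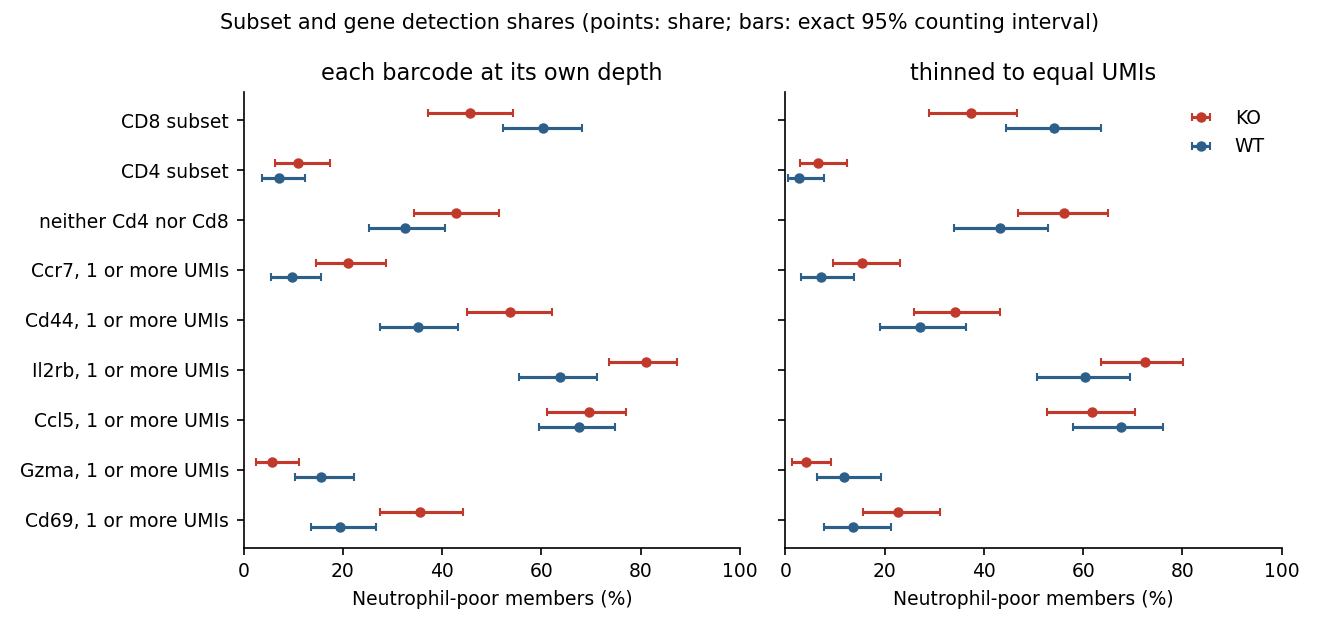
The x axis is the percentage of neutrophil-poor barcodes in each subset or with at least 1 UMI of a gene, at each barcode's own depth (left, 138 KO and 154 WT) and thinned to 1638 UMIs (right, 123 KO and 111 WT). Points are shares and bars exact 95% Clopper-Pearson intervals, and the CD8 subset lies lower in KO in both panels (45.7% against 60.4%, and 37.4% against 54.1%).

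The barcodes also parted by genes of memory and naive T cells, in both libraries. Ccl5, a chemokine that memory and effector T cells store as RNA, was found in 69.6% (61.2 to 77.1) of KO and 67.5% (59.5 to 74.9) of WT barcodes, against 0.727% and 1.26% of B cells. Ccr7, Lef1 and Dapl1 mark naive T cells. Ccl5 without any of these was found in 64 KO and 78 WT barcodes, at least 1 of them without Ccl5 in 26 and 27, both in 32 and 26, and neither in 16 and 23. Because these sub-groups were cut on measured genes, and B cells hold the naive genes too (38.7% and 31.4% of them without Ccl5), the levels of other genes in them are a description.

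Klrk1, Nkg7, Id2, Il2rb and Klre1 were higher in the Ccl5 sub-group of both libraries. Klrk1, the activating receptor NKG2D, had 83 UMIs (351 CPM) against 2 in the naive-gene sub-group of KO, and 72 UMIs (367 CPM) against 2 in WT. Nkg7, a granule membrane protein, was 5.04-fold higher (3.47 to 7.55) in KO and 2.65-fold higher (1.87 to 3.85) in WT. Id2, a regulator of effector T cells, was 4.01-fold (3.03 to 5.40) and 4.19-fold (2.86 to 6.33) higher, and Il2rb, the beta chain of the receptors for interleukin 2 and interleukin 15, 2.41-fold (1.83 to 3.21) and 2.87-fold (1.92 to 4.45). Klre1, a killer lectin-like receptor gene, had 74 UMIs in KO and 56 in WT against 0 in the naive-gene sub-group of each.

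S1pr1 and Satb1 were higher in the naive-gene sub-group of both libraries. S1pr1, the receptor that T cells follow out of tissues, was 3.03-fold higher there (1.53 to 6.22) in KO and 6.12-fold (3.52 to 11.1) in WT. Satb1, a chromatin organiser, was 2.40-fold (1.62 to 3.56) and 3.16-fold (2.11 to 4.79) higher. Between libraries, the Ccl5 sub-group had 7.46% of 1462 genes 1.5-fold higher and 4.45% lower in KO, and the naive-gene sub-group 14.7% and 11.9% of 604. Genes on which the sub-groups did not part in either library included Trac, at 494 CPM against 360 CPM in KO and 530 CPM against 487 CPM in WT, and Bcl2, a survival gene. Directions differed between libraries for Itgb1, an integrin chain, which was 452 CPM against 176 CPM in KO and 423 CPM against 539 CPM in WT, where the interval of the ratio included 1 (0.546 to 1.13). The plot of sub-group ratios shows the genes side by side.

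**Figure D3:**
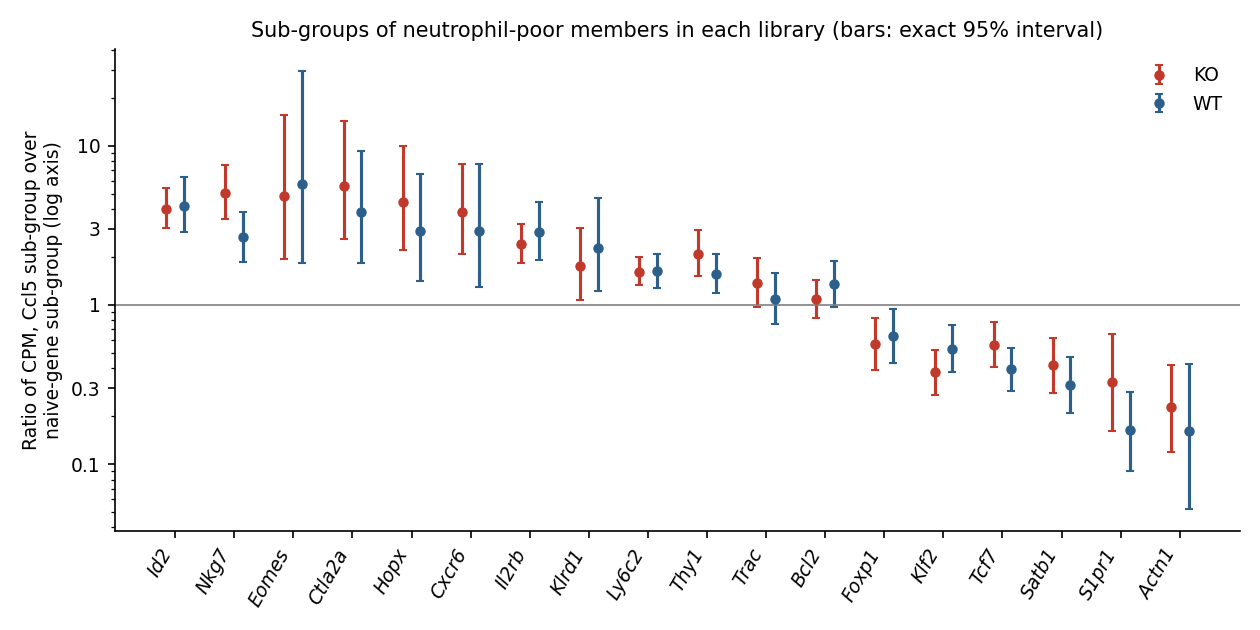
The y axis (log) is the ratio of CPM in neutrophil-poor barcodes with Ccl5 and no naive gene (64 KO, 78 WT) to those with a naive gene and no Ccl5 (26 KO, 27 WT). Bars are exact 95% conditional intervals for counting error, and from Id2 to Ly6c2 the ratios lie above 1 in both libraries, from Foxp1 to Actn1 below 1.

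CD8 barcodes and barcodes with neither coreceptor were also unlike in both libraries. Ikzf2, the transcription factor Helios, stood at 236 CPM in CD8 barcodes against 643 CPM in those with neither in KO, and at 149 CPM against 419 CPM in WT. Maf, a transcription factor of several helper and innate-like T cells, stood at 7.38 CPM against 246 CPM in KO and 34.9 CPM against 265 CPM in WT. Trdc had 0 UMIs against 38 in KO and 8 against 22 in WT, where 1 CD8 barcode held all 8. Cxcr6, a chemokine receptor of resident T cells, stood at 218 CPM against 429 CPM in KO and 156 CPM against 282 CPM in WT. Ly6c2, a surface protein of memory CD8 T cells, was 1.69-fold higher (1.45 to 1.99) in CD8 barcodes of KO but 1.02-fold (0.843 to 1.23) in WT. Ly6c2 and Ly6c1 are near-identical copies, so its counts may be mixed.

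For the KO over WT comparison, UMIs were summed over the barcodes of a library and scaled to CPM, and genes with at least 50 UMIs in both libraries together were measured. Of 3344 genes in neutrophil-poor barcodes, 180 (5.38%) were at least 1.5-fold higher in KO and 143 (4.28%) at least 1.5-fold lower, with a median log2 ratio of 0.03. The same shares were 11.5% higher and 7.96% lower of 1985 genes in NK barcodes, and 6.75% and 6.59% of 6818 in mature B cells. Over all rule barcodes 450 of 4548 genes (9.89%) were higher and 311 (6.84%) lower. The 10 highest there, by the rule for named genes, included the neutrophil genes Padi4, Lrg1, Fpr2 and Olfm4, and the T cell genes Gzma, Themis, Cd8a and Il7r were among the 10 lowest. S100a9 stood at 56876 CPM in KO against 21836 CPM in WT over all rule barcodes, 2.60 times as high, but at 0.961 times (0.879 to 1.05) in neutrophil-poor ones.

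Genes of the T cell receptor and its proximal signaling leaned lower in KO by small amounts. All 21 members of that list were measured: 6 lay above the median ratio of all genes and 15 below, none was 1.5-fold higher and 1 was 1.5-fold lower, and the list's median lay 0.09 log2 below that of all genes. Over all rule barcodes 20 of 21 lay below, 5 past 1.5-fold, and the median lay 0.32 log2 below. Themis, a scaffold of receptor signaling in thymocytes and T cells, was the member past the fold, at 67.9 CPM in KO against 134 CPM in WT, 1.97-fold lower (1.28 to 3.05). Thy1 stood at 732 CPM (662 to 808) and 955 CPM (867 to 1050), 1.30-fold lower in KO (1.135 to 1.498), but at a ratio of 1.05 after thinning. Lat, the membrane adaptor below the receptor, stood at 290 CPM and 405 CPM, 1.40-fold lower (1.12 to 1.74). Cd247, the zeta chain that carries the signal inward, lay on the other side, at 149 CPM and 100 CPM, 1.48-fold higher (1.02 to 2.19). Cd3e and Cd3g, which the rule counted, were within 1.10-fold of each other between libraries.

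The CD8 coreceptor chains were lower in the KO library, as was the share of CD8 barcodes. Cd8a (chr6:71373427-71379173, plus strand) had 118 UMIs in 50 KO barcodes and 185 UMIs in 76 WT barcodes, or 217 CPM (179 to 259) against 412 CPM (355 to 476), which is 1.90-fold lower in KO (1.501 to 2.42). Its neighbour Cd8b1 (chr6:71322788-71337494, plus strand) stood at 268 CPM (226 to 315) and 367 CPM (313 to 428), 1.37-fold lower (1.09 to 1.72). Within the CD8 barcodes alone Cd8a was at 435 CPM and 587 CPM and Cd8b1 at 535 CPM and 524 CPM. In those CD8 barcodes 104 of 1957 measured genes (5.31%) were 1.5-fold higher and 106 (5.42%) lower.

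Among cytokine receptors the library values moved both ways. Of 20 measured members of the cytokine receptor and JAK-STAT list, 2 were 1.5-fold higher, Il2rb and the kinase gene Jak2, and 2 were lower, Il7r and Il21r. The interval of the Jak2 ratio, 1.57, included 1 (0.904 to 2.80), and the ratio was 0.979 over all rule barcodes and 0.963 after thinning. The Il2rb ratio over all rule barcodes was 1.36 and that after thinning 1.60. For Il21r the interval was 0.412 to 0.998 and the ratio after thinning 0.812. Il2rb stood at 1030 CPM (946 to 1119) in KO against 666 CPM (592 to 746) in WT, 1.55-fold higher (1.34 to 1.79), and was found in 81.2% (73.6 to 87.3) of KO and 63.6% (55.5 to 71.2) of WT barcodes, against 0.935% and 0.681% of B cells. At equal depth these shares were 72.4% (63.6 to 80.0) and 60.4% (50.6 to 69.5). The ratio was 1.21 (0.982 to 1.48) in CD8 barcodes and 1.78 (1.41 to 2.26) in those with neither coreceptor, where 66 of 955 measured genes (6.91%) were 1.5-fold higher and 54 (5.65%) lower, a difference between subsets that was not tested. In NK cells it was 0.913 (0.770 to 1.09). Il2rg, the gamma chain shared by these receptors, was at 218 CPM and 247 CPM, within counting error (0.677 to 1.16).

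Il7r (interleukin 7 receptor, the survival receptor of naive and memory T cells) lay lower in KO, at 200.1 CPM (164 to 241) against 343 CPM (291 to 401), 1.71-fold lower (1.33 to 2.21). Its ratio was also below 1 in CD8 barcodes, 0.597 (0.423 to 0.834), and in the naive-gene sub-group, at 208 CPM against 550.0 CPM. Averaged over barcodes instead of summed, the ratio was 0.752, and after thinning 0.757, short of the 1.5-fold limit. In mature B cells the ratio was 0.550 (0.440 to 0.684), below 1 like that in T cells. Il7r is also read in B cell precursors, where 35.7% of KO and 39.8% of WT B cell barcodes held it.

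**Figure D4:**
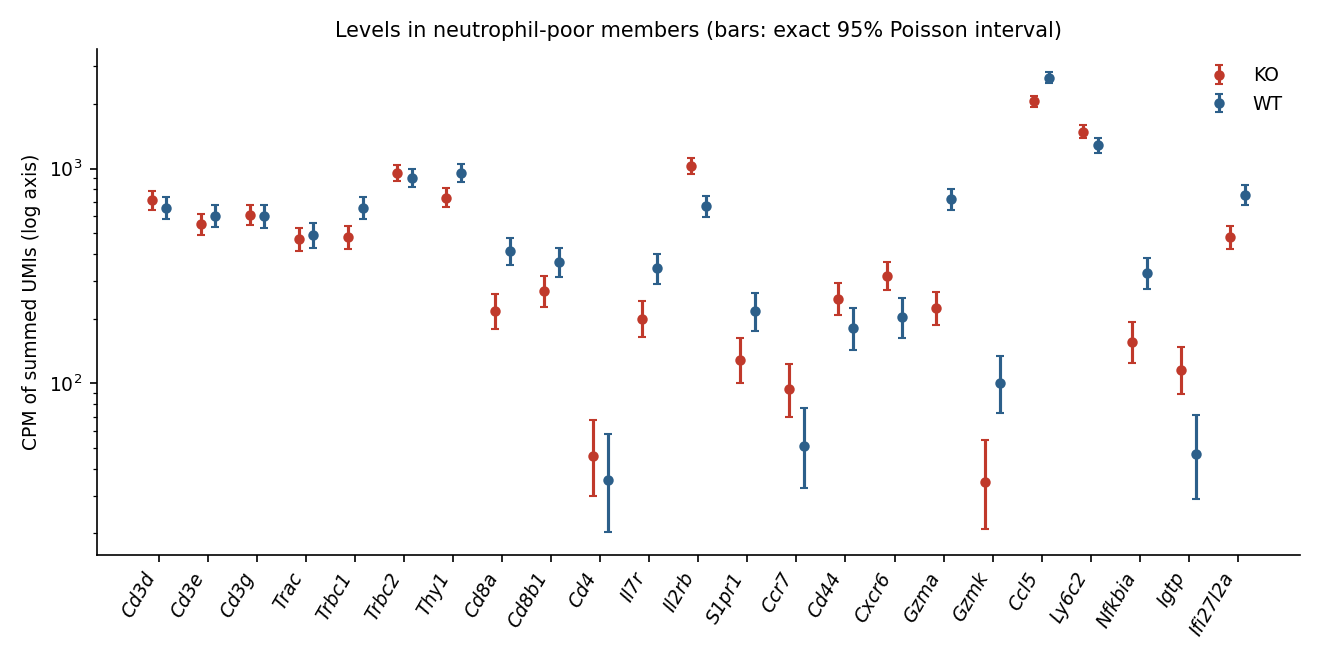
The y axis (log) is CPM of UMIs summed over the neutrophil-poor barcodes, 138 in the KO library (red) and 154 in the WT library (blue), for genes of the receptor, the coreceptors, cytokine receptors, homing, effector function and interferon response. Bars are exact 95% Poisson intervals, which do not overlap for Cd8a (217 and 412 CPM), Il2rb (1030 and 666 CPM) and Gzma (224 and 719 CPM).

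Cytotoxic genes did not move together. Of 12 measured members of the cytotoxic list, 6 lay above and 6 below the median ratio of all genes, none was 1.5-fold higher and 2 were 1.5-fold lower, both granzymes. Gzma (granzyme A, chr13:113093825-113100981, minus strand) had 122 UMIs in 8 KO barcodes and 323 UMIs in 24 WT barcodes, or 224 CPM (186 to 267) against 719 CPM (643 to 802). It was 3.21-fold lower in KO (2.60 to 3.99), and was found in 5.80% (2.54 to 11.1) of KO and 15.6% (10.2 to 22.3) of WT barcodes, at equal depth 4.07% (1.33 to 9.23) and 11.7% (6.39 to 19.2). The counts were concentrated, with up to 60 UMIs in 1 KO barcode and 65 in 1 WT barcode. In CD8 barcodes it stood at 325 CPM and 663 CPM, and in barcodes with neither coreceptor at 32.2 CPM and 976 CPM. These class values rest on few barcodes. Of the 88 UMIs in 6 KO CD8 barcodes, 1 barcode held 60, and of the 209 in 15 WT CD8 barcodes, 1 held 45. The WT barcode with 65 UMIs thus lay outside the CD8 class. In NK barcodes, which hold this gene in large amounts, the ratio was 0.732 (0.670 to 0.801).

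Gzmk (granzyme K, chr13:113171608-113225908, minus strand) stood at 34.9 CPM (21.0 to 54.5) in 13 KO barcodes and 100.2 CPM (73.1 to 134) in 29 WT barcodes, 2.87-fold lower (1.65 to 5.20). Gzmb, at 97.3 CPM and 129 CPM, Prf1 (perforin), at 62.4 CPM and 93.5 CPM, and Nkg7, at 821 CPM and 735 CPM, had intervals of the ratio that include 1. Granzyme genes are related in sequence, and whether any UMIs were assigned to another granzyme gene was not tested. Among the 5 genes named here, the interval of the ratio left out 1 for Gzma and Gzmk.

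The memory and effector list was evenly placed, with 13 of 25 measured members above the median of all genes and 12 below. Besides Il2rb, the member past 1.5-fold was Zeb2, at 60.6 CPM and 93.5 CPM, with an interval of the ratio that includes 1 (0.398 to 1.05) and, after thinning, a ratio of 0.764, short of the 1.5-fold limit. Cd44, the hyaluronan receptor raised on memory T cells, stood at 248 CPM (208 to 293) and 180 CPM (143 to 224), 1.37-fold higher in KO (1.04 to 1.83). The share of barcodes with Cd44 was 53.6% and 35.1%, but at equal depth 34.1% (25.8 to 43.2) and 27.0% (19.0 to 36.3), and B cells held it in 32.4% and 29.2%. Id2 was 1.36-fold higher (1.20 to 1.54), and Ccl5 1.29-fold lower (1.19 to 1.40), at 2058 CPM in KO against 2654 CPM in WT. The Ly6c2 ratio was 1.16 (1.04 to 1.29) from the sums, 1.03 averaged over barcodes and 0.931 after thinning, on both sides of 1. S100a6, another calcium-binding S100 gene, was 1.37-fold higher in neutrophil-poor barcodes (1.22 to 1.55) and 6.38-fold over all rule barcodes, where neutrophil UMIs enter. Its ratio was 2.30 (1.92 to 2.79) in NK and 4.12 (3.87 to 4.38) in mature B cells, sets without a neutrophil limit. In both libraries the S100a6 level in T cell barcodes was under 0.5 of that in the other barcodes. Of the 5 measured S100 genes other than S100a8 and S100a9, 4 lay above the median of all genes, none past 1.5-fold, and 2 of these 4, S100a6 and S100a11, were under 0.5 of the level in other barcodes.

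Genes of naive T cells and of homing likewise moved both ways. In the naive list 9 of 17 measured members lay above the median and 8 below, and in the homing list 8 of 19 above and 11 below. S1pr1 stood at 129 CPM (100.2 to 162) in 43 KO barcodes and 216 CPM (175 to 263) in 53 WT barcodes, 1.68-fold lower (1.22 to 2.32), although averaging over barcodes gave a ratio of 0.723. Ccr7, the receptor that guides naive T cells into lymph nodes, stood at 93.6 CPM (69.7 to 123) in 29 barcodes and 51.2 CPM (32.5 to 76.8) in 15, 1.83-fold higher (1.10 to 3.14). Its shares at equal depth were 15.4% (9.56 to 23.1) and 7.21% (3.16 to 13.7), against 15.4% and 10.1% of B cells, so they did not exceed the B cell level. Tcf7, a transcription factor of naive and memory precursor T cells, was 1.27-fold lower (1.05 to 1.52), with a ratio of 1.01 after thinning.

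Cxcr6 stood at 318 CPM (272 to 369) in 50 KO barcodes and 203 CPM (163 to 248.7) in 50 WT barcodes, 1.57-fold higher (1.21 to 2.04), with up to 18 UMIs in 1 KO barcode and none in B cells of either library. Over all rule barcodes its ratio was 1.23. Itga4, the integrin chain that binds VCAM1 of marrow stroma, stood at 408 CPM and 574 CPM, 1.41-fold lower (1.17 to 1.69). Itga1, a collagen-binding integrin chain of tissue-resident T cells, was the gene with the highest ratio by the naming rule, at 136 CPM and 57.9 CPM, 2.35-fold (1.48 to 3.82), in 33 KO and 17 WT barcodes. Homing receptors thus differed in both directions between these libraries, and none of the 3 lists as a whole lay more than 0.10 log2 from the median of all genes.

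The gamma-delta and innate-like list had 7 measured members, 5 above the median and 2 below, with 2 past 1.5-fold: Cxcr6 and Tcrg-C2, a gamma chain constant gene. Tcrg-C2 stood at 97.3 CPM and 53.4 CPM, 1.82-fold higher (1.10 to 3.08) or 1.46-fold after thinning, and its close copy Tcrg-C1 at 55.1 CPM and 35.6 CPM, while Trdc was level at 69.8 CPM and 66.8 CPM. Because Tcrg-C genes are near-identical, their separate counts are uncertain. In the regulatory T program only 2 of 14 genes reached 50 UMIs, Ikzf2 and Tnfrsf18, a receptor also called GITR. The Tnfrsf18 ratio was 1.52 with an interval that includes 1 (0.913 to 2.58), 1.05 averaged over barcodes and 0.902 after thinning. Ikzf2 was at 367 CPM (318 to 422) and 249.3 CPM (205 to 300.0), 1.47-fold higher (1.16 to 1.87), and 1.08-fold over all rule barcodes. No member of the 8 measured costimulatory and checkpoint receptors passed 1.5-fold.

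Interferon-response genes did not share a direction. Of 23 measured members, 13 lay above the median and 10 below, 2 were 1.5-fold higher and 2 lower, and the median lay 0.14 log2 above that of all genes, whereas in mature B cells 12 lay above and 22 below, with the median 0.21 log2 lower. In NK cells 3 lay above and 6 below. Igtp, an interferon-induced GTPase, stood at 116 CPM (88.9 to 148) in 47 KO barcodes and 46.8 CPM (28.9 to 71.5) in 19 WT barcodes, 2.47-fold higher (1.49 to 4.27), with no more than 3 UMIs in any barcode. Its ratio was 0.781 (0.266 to 2.77) in NK and 1.13 (0.630 to 2.01) in mature B cells. Ifi27l2a, which interferon raises in many leukocytes, ran the other way, at 479 CPM (423 to 541) and 755 CPM (677 to 839), 1.58-fold lower (1.34 to 1.86). For Ifi27l2a the NK and mature B ratios were 0.429 (0.256 to 0.732) and 0.433 (0.393 to 0.476), below 1 like that in T cells. None of the 18 measured genes of MHC class I presentation passed 1.5-fold. Tap1, a peptide transporter, was 1.45-fold higher (1.06 to 1.99), and H2-Q6 1.36-fold lower (1.12 to 1.66), the latter with near-identical neighbours.

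Immediate early genes, which stress and cell isolation raise, were split 8 above and 8 below the median of all genes in neutrophil-poor barcodes but 14 above and 4 below over all rule barcodes. Nfkbia, the inhibitor of NF-kB, was the lowest of them, at 156 CPM (125 to 193) in 51 KO barcodes and 325 CPM (274 to 382) in 55 WT barcodes, 2.08-fold lower (1.58 to 2.75), and it was lower also within CD8 barcodes, at 148 CPM against 330.1 CPM. Over all rule barcodes the Nfkbia ratio was 0.724, short of the 1.5-fold limit, and it was 0.532 (0.341 to 0.843) in NK and 0.897 (0.784 to 1.02) in mature B cells. Dgka, a diacylglycerol kinase that limits receptor signaling, was found in 33 KO barcodes (73.4 CPM) and 49 WT barcodes (154 CPM), 2.09-fold lower (1.40 to 3.17). Grap, an adaptor of the same pathway, was 1.81-fold lower (1.22 to 2.70), with a ratio of 0.732 when averaged over barcodes.

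Cell cycle genes lay higher in KO in the summed neutrophil-poor barcodes, and the small CD4 class held much of that difference. Of 18 measured members of the S and G2M list, 14 lay above the median of all genes and 4 below, 3 were 1.5-fold higher and none lower, while over all rule barcodes 7 lay above and 13 below. In mature B cells all 23 lay below. The UMIs of the list summed to 15471 CPM in the 15 CD4 barcodes of KO against 2143 CPM in the 11 of WT, and 2 KO barcodes held 428 and 418 of those 1313 KO UMIs. In CD8 barcodes they summed to 6759 CPM against 6446 CPM, with 6 of 13 measured members above the median of all genes and 7 below. In barcodes with neither coreceptor the sums were 4265 CPM and 4836 CPM, with 2 of 6 above and 4 below. Stmn1, a microtubule regulator of dividing cells, stood at 442 CPM (388 to 502) and 247 CPM (203 to 298), 1.79-fold higher (1.42 to 2.26), from 24 barcodes in each library, and 1.13-fold over all rule barcodes. Ube2c, which acts in mitosis, was 2.06-fold higher (1.47 to 2.92) from 13 and 11 barcodes with up to 49 UMIs in 1 of them, and 1.31-fold after thinning. Mki67, the proliferation marker, was found in 17.4% (11.5 to 24.8) of KO and 11.7% (7.08 to 17.8) of WT barcodes, at equal depth 11.4% (6.36 to 18.4) and 9.91% (5.05 to 17.0). Its level was 332 CPM and 272 CPM, with an interval of the ratio from 0.967 to 1.55, and the ratio was 0.924 over all rule barcodes and 0.799 after thinning.

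The remaining lists differed from the median of all genes by small amounts. Nuclear-encoded respiratory chain genes leaned higher in KO, with 30 of 39 members above it and 9 below. Their median lay 0.09 log2 higher and none was past 1.5-fold. In the naive-gene sub-group 26 of 28 measured members lay above and 2 below, with the median 0.44 log2 higher. There 9 of them were 1.5-fold higher, against 14.7% of all 604 genes. In the Ccl5 sub-group 27 of 39 lay above and 11 below, with the median 0.12 log2 higher. In all neutrophil-poor barcodes, 6 of 9 heat shock chaperones and 7 of 13 quiescence and survival genes lay below. Of 8 GIMAP genes, small GTPases of lymphocytes, 6 lay above, and no member of these 3 lists was past 1.5-fold. The plot of gene lists sets these medians beside those over all rule barcodes.

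**Figure D5:**
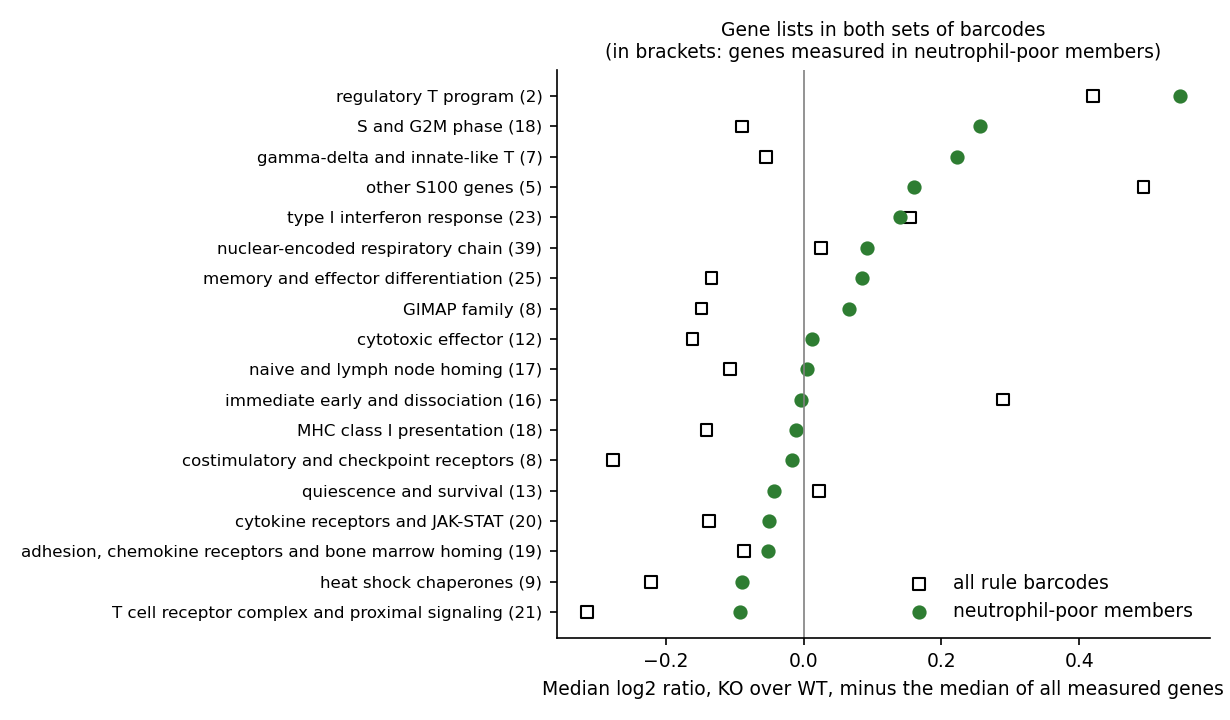
The x axis is the median log2 ratio, KO over WT, of each gene list minus that of all measured genes, for neutrophil-poor barcodes (filled circles) and all rule barcodes (open squares). Brackets give the number of genes measured in neutrophil-poor barcodes, only 2 for the regulatory T program, and the T cell receptor list moves from 0.32 below to 0.09 below when neutrophil-rich barcodes are left out.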

How the data were processed

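Droplet single-cell RNA libraries of CD45-positive bone marrow cells, 1 KO and 1 WT, were analysed from the deposited raw UMI count matrices, written by Cell Ranger 3.1.0 per the file headers. The authors' deposited counts name 31053 features under 31017 symbols, and same-symbol features were summed. The submitters' processing notes list R 4.2.1 and Seurat 4.3.0, a different Cell Ranger version (6.1.2), and the builds mm10 and GRCm38, without roles. The smallest barcode total was 500 UMIs, so a minimum had been applied. Tumor libraries served only to count barcodes.

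The members and gene lists were chosen with earlier results of these data known, and the neutrophil-poor limit after the barcodes were seen. UMIs were summed per library and scaled to CPM, since cells are not replicates, and no test was made. Sums carry Poisson, shares Clopper-Pearson, ratios of levels conditional binomial and ratios of shares Katz log intervals (Python 3.11.15, scipy 1.17.1), checked on simulated counts. A count of 0 was set to 3 UMIs for its upper limit. Alternatives were other Cd3, UMI, mitochondrial and gene minimums, thinning, means over barcodes, other denominators, and leaving out marked doublets or neutrophil-rich barcodes.

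Named genes were fixed markers, the 10 highest and 10 lowest ratios among genes with at least 100 UMIs and 100 CPM, and up to 6 members of each of 18 lists with at least 30 UMIs, of which the text gives a selection. Klrk1, Klre1, Maf, Satb1, Itgb1 and Bcl2, Tnfrsf18, Zeb2 and the sub-group comparisons were chosen after their values were seen. Doublets were kept, as in the rule. Scrublet in scanpy 1.11.5 marked 0% of KO barcodes at its automatic threshold, so the top 6.00% by score were left out there in the alternative, and 4.97% in WT. One gene is not reported here.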

Additional observations from a re-analysis of the deposited data

How the results depend on the processing

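Settings were altered one at a time, for all rule barcodes and for the neutrophil-poor ones. Over all rule barcodes, 450 genes were 1.5-fold higher and 311 lower in KO, and 3 lists lay over 0.3 log2 from the median of all genes. With at least 3 Cd3 UMIs the shares were 1.37% and 1.71% of barcodes in KO and WT, CD8 43.0% in KO, the gene counts 226 and 159, and the lists 1. With at least 1 Cd3 UMI the shares were 4.53% and 3.83%, a ratio of 1.18 in place of 0.851, CD4 3.46% in KO, CD8 14.6% and 37.7%, the gene counts 698 and 654, the lists 10, and the regulatory T program lay at -0.29. Counted against barcodes neither neutrophil- nor erythroid-rich, the shares were 5.11% and 4.22%, a ratio of 1.21, for both sets. Against barcodes under 1% they were 4.74% and 4.25%, a ratio of 1.11, for both sets. Thinning gave CD4 3.82% in WT and 184 and 151 genes, averaging over barcodes 520 lower genes, a minimum of 100 UMIs 218 and 105, and one of 10 UMIs 1277 and 1402. Keeping neutrophil-poor barcodes, which like the under-1% denominator was decided on once values had been seen, gave a KO share of 1.27%, a ratio of 0.658, CD8 45.7% in KO, 180 and 143 genes, 1 list and a log2 ratio of -0.0567 for S100a9, which was 1.38 over all rule barcodes.

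For neutrophil-poor barcodes, 3 Cd3 UMIs gave a WT share of 1.53%, and 1 Cd3 UMI 2.35%, 295 higher genes and 0 lists. At least 1000 UMIs a barcode gave 2 lists. Thinning gave CD4 2.70% in WT, 74 and 51 genes and 3 lists. A minimum of 100 UMIs a gene gave 46 and 29 genes, and one of 10 UMIs 1147 and 1042 genes and 2 lists. Of the single-gene values, 397 kept their side of 1.5-fold, though some within it changed direction, 14 fell short of it, 4 passed it and 0 changed direction from beyond it. No cause was tested.

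No paired analysis was possible because each group is 1 library. Depth limits the CD4, Foxp3 and Trdc classes, which rest on 15 or fewer barcodes each.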

Other observations

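Some of the other genes among the 10 highest and 10 lowest ratios by the naming rule are given here. Srgn, the core protein of cytotoxic granules, stood at 450.0 CPM in 94 KO barcodes and 263 CPM in 66 WT barcodes, 1.71-fold higher (1.37 to 2.15), but 1.36-fold over all rule barcodes. Fgl2, a secreted fibrinogen-like protein, was 1.72-fold higher (1.21 to 2.48), and Dok2, an adaptor that limits receptor signaling, 1.71-fold (1.16 to 2.56), or 1.47-fold after thinning. Rbpj, the DNA-binding partner of Notch, was 1.88-fold higher (1.25 to 2.89), but 1.28-fold when averaged over barcodes. Gtpbp4, a ribosome assembly GTPase, was 1.89-fold higher (1.22 to 2.98), and Psma1, a proteasome subunit, 1.67-fold (1.09 to 2.62).

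Among the lowest, Pet100, an assembly factor of respiratory complex IV, stood at 132 CPM in KO against 234 CPM in WT, 1.77-fold lower (1.30 to 2.42), but had a ratio of 0.870 over all rule barcodes. Cdc40, a splicing factor, was 1.72-fold lower (1.15 to 2.60), and Med1, a Mediator subunit, 1.68-fold lower (1.12 to 2.54). Within CD8 barcodes, for a pair of genes chosen after their values were seen, Ly6c2 stood at 2014 CPM and 1339 CPM, with a ratio of 1.504 (1.32 to 1.71), and Itgb1 at 273 CPM and 409 CPM.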
